A study of Homo sapiens with 6 samples.

Results

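IGF binding proteins and IGF receptors were examined in HK-2, a human cell line from the kidney proximal tubule that grows without limit in culture, with and without transforming growth factor β1 (TGF-β1). The genes were 10 by name, namely IGFBP1 to IGFBP7, the receptors IGF1R and IGF2R and the ligand gene IGF2, out of 41497 named entries of the count tables. For each name the entry on a primary chromosome was taken. The study used these libraries to look for genes that respond to TGF-β in tubular cells. Cells labelled control were set against cells that received TGF-β1 for 24 h, with 3 libraries in each group. The groups also carry the names NC and TGF_NC, and what NC stands for is not stated. Both groups were labelled wild type. Growth medium held fetal bovine serum per the labels, while the study's methods describe TGF-β treatments in general as done in serum-free medium. The dose given there differs between experiments. The serum state of the control cells is not stated. Nothing states that the 3 libraries of a group came from separate cultures, so p-values measure only the spread between these libraries, which may be technical.

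Insulin-like growth factors (IGF) signal through IGF1R, a receptor tyrosine kinase, while IGF2R, also known as the cation-independent mannose 6-phosphate receptor, takes up IGF2 for degradation and sorts lysosomal enzymes. IGFBP1 to IGFBP6 bind IGFs with high affinity in the extracellular space and are cut by proteases that release the ligand. IGFBP7 binds IGFs weakly and is secreted into the matrix. In the kidney, IGFs and their binding proteins act on tubular growth and transport.

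Libraries held 21.9 to 26.9 megacounts (M), and the 10 genes took 0.0836% to 0.0903% of all counts. Of 14860 genes that passed a filter on low counts, 44.3% were called changed, meaning a Benjamini-Hochberg adjusted p under 0.05 in the edgeR quasi-likelihood test. That was 22.2% higher and 22.1% lower. All 6 genes of a TGF-β response list were called higher, COL1A1 with a log2 fold change of 3.30 among them. Of 8 proximal tubule markers, 6 had a mean under 1 CPM (a counts-per-million value over named genes, scaled by TMM) in both groups, and LRP2 and SLC22A6 had no read. The epithelial genes PAX8 and KRT8 stood at 251 and 488 CPM in control. The summed level of 3 endothelial markers was 0.858 to 1.6 CPM in control and 0 after TGF-β1, and of 3 leukocyte markers PTPRC had 2 reads in each group, CD3E had none, and CD68 was called lower, from 96.7 to 71.0 CPM. The fibroblast marker PDGFRB was called higher, from 0.551 to 5.79 CPM, the more abundant LUM was called lower, from 61.7 to 51.0 CPM, and DCN and PDGFRA stayed under 1 CPM. The part of these shifts in the results below was not tested. TGF-β1 replicate 1 stood apart on the second principal component, at 26.9 against -13.2 and -15.1 in the other TGF-β1 libraries. In that library the median log2 CPM of genes of 10 kb or more differed from the other 2 TGF-β1 libraries by -0.203 (1500 genes), and that of genes under 2 kb by 0.118 (2693 genes).

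TGF-β1 raised IGFBP3 and IGF1R and lowered IGFBP4, IGFBP5, IGFBP6 and IGF2R. IGFBP7 was not called, and IGFBP1, IGFBP2 and IGF2 had too few reads for the fit. The 6 calls among 7 tested genes stand beside 44.3% of all genes tested, and no test was made of that count. The median log2 fold change of the 7 tested genes was -0.37, against 0.0063 over all genes tested. IGFBP3 was the 1 gene of the 7 changed at least 2-fold, a limit passed by 9.06% of all genes tested. Of the 7 tested genes, 6 had 3 TGF-β1 values entirely above or below the 3 control values, and IGFBP7 did not. This held for 55.6% of all genes tested. The 6 are the called genes, so their separation adds nothing to the calls. In bulk RNA, fewer cells that express a gene and less RNA of it per cell cannot be told apart.

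**Figure D1:**
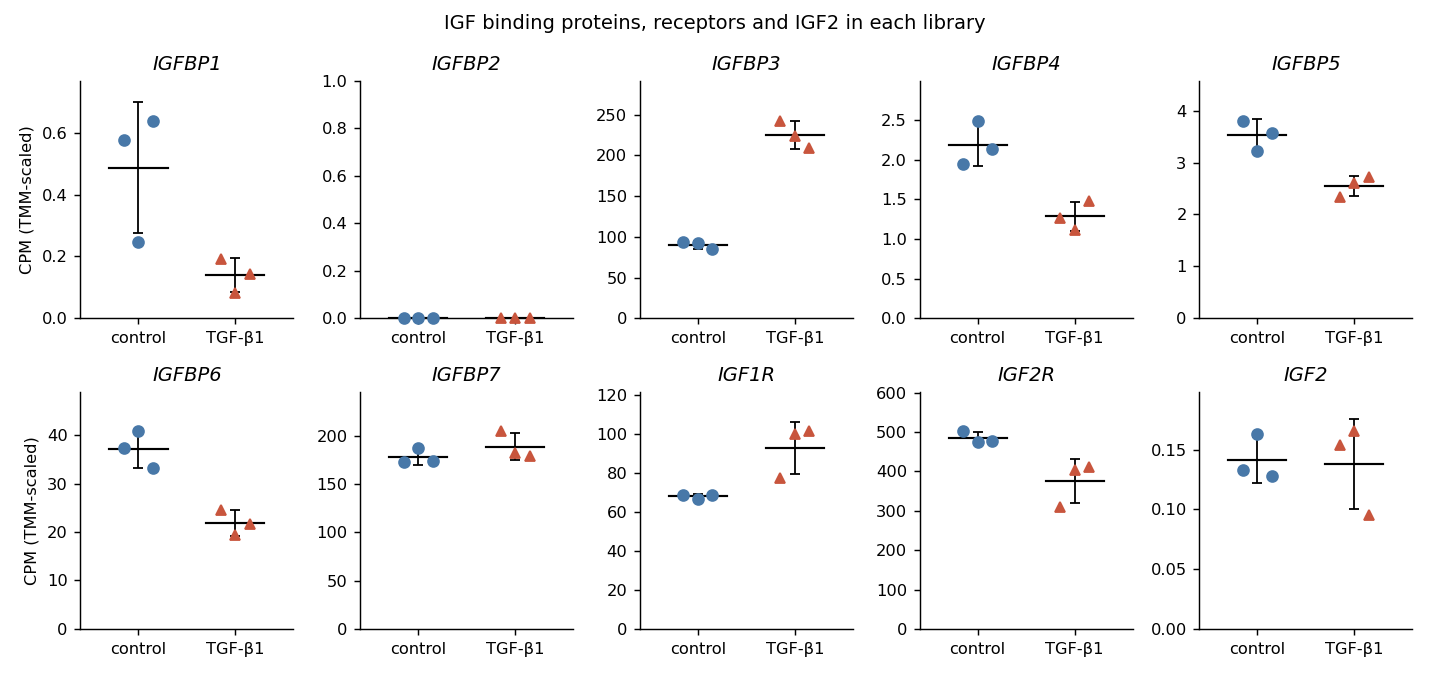
CPM of the 10 genes in each library, with circles for control, triangles for TGF-β1, long bars for the group mean and whiskers for the SD (n = 3). Each panel starts at 0 and has its own scale. The TGF-β1 points of IGFBP3 and IGF1R lie above all control points, those of IGFBP1, IGFBP4, IGFBP5, IGFBP6 and IGF2R lie below them, those of IGFBP7 and IGF2 overlap them, and IGFBP2 is at 0 in every library.

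The level of each gene was set against the others in TPM, a transcripts-per-million value that divides counts by gene length. In control cells IGFBP7 had the highest level, with 372 ± 17.5 TPM (SD, n = 3), followed by IGFBP6 with 130 ± 12.3, IGF2R with 115 ± 2.36, IGFBP3 with 114 ± 3.95 and IGF1R with 16.9 ± 0.410 TPM. The ranges of IGF2R and IGFBP3 overlapped in control, and those of all other neighbours in the order did not. IGFBP4, IGFBP5 and IGFBP1 followed with 3.31 ± 0.433, 1.89 ± 0.148 and 1.07 ± 0.472 TPM. After TGF-β1 the order became IGFBP7 with 363 ± 17.0 TPM, IGFBP3 with 262 ± 14.2, IGF2R with 82.1 ± 14.4, IGFBP6 with 70.6 ± 6.44 and IGF1R with 21.3 ± 3.56 TPM. Here the ranges of IGF2R and IGFBP6 overlapped. By mean level IGFBP3 moved from the 4th to the 2nd place, and IGFBP6 from the 2nd to the 4th.

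IGFBP3, the main carrier of IGFs in blood and a secreted protein with IGF-independent actions, had the largest rise. It is listed on GRCh38 chromosome 7 at 45912245 to 45921272, minus strand. The control libraries had 2104, 2248 and 1986 counts and the TGF-β1 libraries 6325, 5402 and 4387 counts. In CPM these read 93.2, 91.9 and 84.6 against 243, 223 and 209. Every TGF-β1 library exceeded every control library by more than the spread within either group. The mean rose from 89.9 ± 4.63 to 225 ± 16.8 CPM (SD, n = 3), a log2 fold change of 1.33 ± 0.07 (SE) with an edgeR adjusted p of 6.39e-08, or 2.51-fold with a 95% interval from 2.26 to 2.78. Over 15 other settings the log2 value lay between 1.22 and 1.37, and every one called it higher.

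Upstream sequence is shown for the genes with the largest called rise and the largest called fall, IGFBP3 and IGFBP4, and for both receptors. IGFBP4 and IGFBP6 fell by nearly the same amount (-0.77 ± 0.20 and -0.76 ± 0.10, SE), and their order turned in 4 of the 6 fits that left out a library. With DESeq2 IGFBP4 was not called. The sequences are the 250 bases before the RefSeq start on GRCh38.p14, 5′ to 3′ on the strand of the gene. Capitals mark matches, on either strand, to 5 motifs, namely the SMAD element CAGAC, the E-box CACGTG, the AP-1 site TGANTCA, the GC box GGGCGG and the TATA box TATAAA. Windows were at hand for 7 of the 10 genes, and IGFBP1, IGFBP7 and IGF2 were not among them.
IGFBP3, chr7:45921273-45921522, minus strand: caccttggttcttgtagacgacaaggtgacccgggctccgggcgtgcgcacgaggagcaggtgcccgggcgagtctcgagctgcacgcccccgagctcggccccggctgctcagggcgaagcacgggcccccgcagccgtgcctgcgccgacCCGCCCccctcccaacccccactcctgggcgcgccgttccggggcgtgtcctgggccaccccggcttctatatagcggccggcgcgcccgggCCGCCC
IGFBP4, chr17:40443200-40443449, plus strand: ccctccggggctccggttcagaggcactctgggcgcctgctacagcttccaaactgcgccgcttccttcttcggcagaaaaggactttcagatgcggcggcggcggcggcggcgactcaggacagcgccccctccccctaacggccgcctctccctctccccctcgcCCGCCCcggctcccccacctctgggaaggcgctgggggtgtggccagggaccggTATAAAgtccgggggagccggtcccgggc
IGF1R, chr15:98648289-98648538, plus strand: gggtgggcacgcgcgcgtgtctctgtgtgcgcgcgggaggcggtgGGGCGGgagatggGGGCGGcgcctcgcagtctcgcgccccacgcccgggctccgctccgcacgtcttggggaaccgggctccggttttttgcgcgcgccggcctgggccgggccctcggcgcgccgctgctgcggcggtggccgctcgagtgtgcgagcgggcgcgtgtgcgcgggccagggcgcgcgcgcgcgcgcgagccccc
IGF2R, chr6:159968832-159969081, plus strand: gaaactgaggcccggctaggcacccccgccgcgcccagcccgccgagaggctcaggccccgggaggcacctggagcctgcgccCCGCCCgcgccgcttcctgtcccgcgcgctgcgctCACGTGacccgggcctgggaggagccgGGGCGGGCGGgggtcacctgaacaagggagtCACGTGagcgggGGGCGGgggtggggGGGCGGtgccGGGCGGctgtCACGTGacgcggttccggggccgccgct
The IGFBP3 window held 2 GC boxes, whose first bases lay 98 and 6 bases before the start, and no exact match to the other motifs. Its letters TATATA near the start differ from the TATAAA searched and were not counted. The IGFBP4 window held a TATA box that began 29 bases before the start and 1 GC box. The IGF1R window held 2 GC boxes, at 205 and 192 bases. The IGF2R window held 3 E-boxes, at 132, 74 and 28 bases before the start, and 6 GC boxes, of which those at 105 and 101 bases overlap. Among all 35116 windows, 42.6% held a GC box, 38% the SMAD element, 10.7% the TATA box, 6.57% the AP-1 site and 6.34% an E-box. At least 3 GC boxes were held by 13.9% of windows, and at least 3 E-boxes by 28 windows (0.0797%). The windows were GC rich, at 76% for IGFBP3, 71.6% for IGFBP4, 81.2% for IGF1R and 79.2% for IGF2R, against a median of 58% over all windows. A match is a description of the letters, and binding was not measured.

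IGFBP4 (chromosome 17, 40443450 to 40457725), a binding protein that holds IGFs away from the receptor until it is cut, was lowered at a low level. It had 44, 61 and 50 counts in control and 33, 27 and 31 after TGF-β1. The highest TGF-β1 value, 1.48 CPM, lay below the lowest control value, 1.95 CPM. The mean fell from 2.19 ± 0.277 to 1.29 ± 0.183 CPM (SD, n = 3), a log2 fold change of -0.77 ± 0.20 (SE) with an edgeR adjusted p of 0.00829. The call was lost with DESeq2, at an adjusted p of 0.0616.

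IGFBP5 (chromosome 2, 216672105 to 216695549), a binding protein that attaches to extracellular matrix, had 86, 79 and 84 counts in control and 61, 63 and 57 after TGF-β1. The TGF-β1 values of 2.34 to 2.72 CPM lay below the control values of 3.23 to 3.81 CPM. Its log2 fold change was -0.47 ± 0.15 (SE) with an edgeR adjusted p of 0.0274. Of the 6 calls, this was the one lost under the most settings. It was lost in the test against 1.2-fold (edgeR adjusted p = 0.138), with DESeq2 (adjusted p = 0.144), with all entries that had a count in edgeR (adjusted p = 0.0636), and when any 1 of 4 libraries was left out (replicates 1 and 3 of control, replicates 1 and 2 of TGF-β1), at edgeR adjusted p from 0.056 to 0.0888.

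IGFBP6 (chromosome 12, 53097667 to 53102340), which prefers IGF2 over IGF1, fell at a high level. The control libraries had 842, 998 and 777 counts and the TGF-β1 libraries 640, 469 and 452. In CPM the control libraries read 37.3, 40.8 and 33.1 and the treated libraries 24.6, 19.4 and 21.6. The groups did not overlap. The mean fell from 37.1 ± 3.85 to 21.9 ± 2.60 CPM (SD, n = 3), or 1.70-fold, a log2 fold change of -0.76 ± 0.10 (SE) with an edgeR adjusted p of 1.47e-04. The call held under all 15 other settings, from -0.87 to -0.69.

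IGFBP7 (chromosome 4, 57030773 to 57110385) was the most abundant member in TPM in both groups and was not called. It had 3907, 4582 and 4090 counts in control and 5337, 4408 and 3760 after TGF-β1. The values of 173, 187 and 174 CPM and of 205, 182 and 180 CPM overlapped. The log2 fold change was 0.08 ± 0.06 (SE) with a 95% interval from -0.06 to 0.22 and an edgeR adjusted p of 0.31. Its sign turned with scaling by total counts only, to -0.023. The gene overlaps POLR2B, and IGFBP7-AS1, on the other strand. POLR2B had 246 and 271 CPM and was not called, though it was without TGF-β1 replicate 1 (log2 fold change 0.20, edgeR adjusted p = 4.14e-04), IGFBP7-AS1 had at most 8 counts in a library, and reads in the shared stretches cannot be told apart without strand.

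IGFBP1 and IGFBP2 were at or near 0. IGFBP1 (chromosome 7, 45888488 to 45893660), an acute-phase binding protein made mainly in liver, had 13, 6 and 15 counts in control and 5, 2 and 3 after TGF-β1, or 34 and 10 reads in all. In CPM the groups did not overlap. The ratio of reads, each taken over the TMM-scaled library size, was 0.291 with a 95% exact binomial interval from 0.128 to 0.603. The 2-sided exact permutation test of CPM gave p = 0.1, the smallest that 3 against 3 allows. The interval covers counting error only, since PCR copies were not told from separate molecules. When all entries with a count were fitted in edgeR, the log2 fold change was -1.74 with an adjusted p of 0.00632, and DESeq2 gave -1.79 with an adjusted p of 0.0918. It also passed the filter in 4 of the fits that left out a library, and was called lower without control replicate 2, TGF-β1 replicate 1 or TGF-β1 replicate 3 (edgeR adjusted p of 0.00782, 0.0158 and 0.0429) and not without TGF-β1 replicate 2 (0.0678). IGFBP2 (chromosome 2, 216632828 to 216664436) had 0 of 141.7 M named counts over the 6 libraries, which allows up to 0.0212 CPM.

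The binding protein genes lie in part as neighbours. IGFBP1 and IGFBP3 are 18585 bases apart on chromosome 7, on opposite strands, and IGFBP2 and IGFBP5 are 7669 bases apart on chromosome 2. The count ratio of IGFBP3 to IGFBP1 was 162, 375 and 132 in the control libraries and 1265, 2701 and 1462 in the TGF-β1 libraries. The groups did not overlap, and the mean log2 ratio was 2.94 higher after TGF-β1 (exact permutation p = 0.1, adjusted p = 0.1 over 2 ratios). IGFBP2 had no read, so no ratio of IGFBP5 to IGFBP2 was formed. The nearest other genes with enough counts lay farther off. LOC730234, 80578 bases from IGFBP1, and RPL37A, 128742 bases from IGFBP2, were not called, with edgeR adjusted p of 0.3 and 0.472. Around IGFBP6, SPRYD3 at 18277 bases was higher (log2 fold change 0.29 ± 0.07), a call lost with total counts only (edgeR adjusted p = 0.0787). CSAD, 55323 bases from IGFBP6, was lower (-0.32 ± 0.07). TOP2A and SMARCE1 (25548 and 167237 bases from IGFBP4), NOA1 (53167 bases from IGFBP7) and MRPL18 (170653 bases from IGF2R) were not called. With total counts only, TOP2A, SMARCE1 and NOA1 were called lower (edgeR adjusted p from 0.00488 to 0.0447). SMARCE1 and NOA1 were also called lower without TGF-β1 replicate 1 (edgeR adjusted p of 0.00636 and 0.0318). SMARCE1 was called lower too with a mean of at least 50 counts (edgeR adjusted p = 0.0492). Besides SPRYD3, POLR2B and the members themselves, the entries that overlap a member or lie within 20 kb had at most 9 counts in a library.

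The make-up of the binding protein transcripts shifted toward IGFBP3. As a share of the summed TPM of IGFBP1 to IGFBP7, IGFBP3 went from 18.3 ± 0.744% to 37.5 ± 0.857% (SD, n = 3). IGFBP6 went from 20.9 ± 1.2% to 10.1 ± 0.708%, and IGFBP7 from 59.8 ± 1.35% to 51.9 ± 0.147%. IGFBP4, IGFBP5 and IGFBP1 together stayed near the bottom, with control shares of 0.531%, 0.304% and 0.175%. The summed TPM of the control libraries was 606, 655 and 605, and that of the TGF-β1 libraries 736, 692 and 670. These shares were not tested, and they depend on dividing by length. Per count, in CPM, IGFBP3 had 28.9% in control and 51.2% after TGF-β1.

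**Figure D2:**
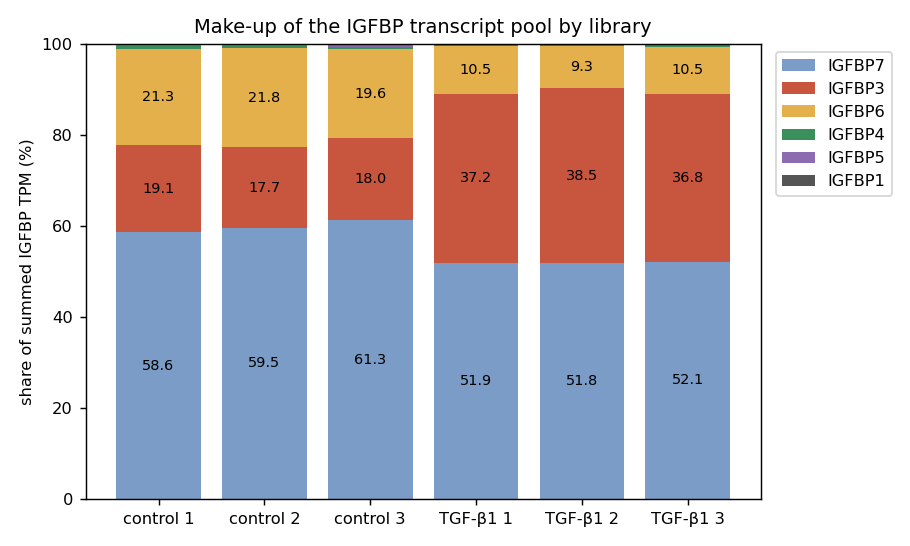
Share of each gene in the summed TPM of IGFBP1 to IGFBP7, in percent, with 1 bar per library and the values of IGFBP7, IGFBP3 and IGFBP6 printed. IGFBP3 takes 17.7% to 19.1% in the control libraries and 36.8% to 38.5% in the TGF-β1 libraries, and IGFBP6 takes 19.6% to 21.8% and 9.28% to 10.5%.

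The 2 receptors moved in opposite directions. IGF1R (chromosome 15, 98648539 to 98964530) had 68.7, 66.7 and 68.4 CPM in the control libraries and 77.5, 99.7 and 101.2 CPM in the TGF-β1 libraries. Every TGF-β1 value was above every control value, and TGF-β1 replicate 1 was the lowest of the TGF-β1 values. The mean rose from 67.9 ± 1.10 to 92.8 ± 13.2 CPM (SD, n = 3), a log2 fold change of 0.45 ± 0.09 (SE) with an edgeR adjusted p of 0.00333. All 15 other settings called it higher, from 0.34 to 0.55.

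IGF2R (chromosome 6, 159969082 to 160111504) had 502, 475 and 478 CPM in control and 310, 404 and 412 CPM after TGF-β1. TGF-β1 replicate 1 was again the lowest, and the groups did not overlap. The mean fell from 485 ± 14.7 to 375 ± 56.8 CPM (SD, n = 3), a log2 fold change of -0.37 ± 0.10 (SE) with an edgeR adjusted p of 0.0153. Without control replicate 1 it was -0.34 with an adjusted p of 0.0567. Both receptor transcripts are long, at 13403 and 14061 bases, and genes of 10 kb or more were low in TGF-β1 replicate 1. Over all 1500 such genes the median log2 fold change was -0.088, with 17.3% called higher and 28.8% lower, and without that library it was -0.037. Leaving it out gave log2 fold changes of 0.55 for IGF1R and -0.26 for IGF2R, with edgeR adjusted p of 1.33e-07 and 9.1e-05.

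Within a library, the ratio of the receptors does not depend on scaling. The TPM ratio of IGF1R to IGF2R was 0.144, 0.147 and 0.150 in the control libraries, against 0.262, 0.259 and 0.258 in the TGF-β1 libraries. TGF-β1 replicate 1 lay beside the other TGF-β1 libraries on this measure. The mean went from 0.147 ± 0.00328 to 0.260 ± 0.00251 (SD, n = 3), and the mean log2 count ratio was 0.82 higher (exact permutation p = 0.1, the smallest possible, and adjusted p = 0.1 over 2 ratios). Leaving out each library gave 0.80 to 0.84. The antisense transcripts IRAIN at IGF1R and AIRN at IGF2R had at most 9 and 1 counts in a library.

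**Figure D3:**
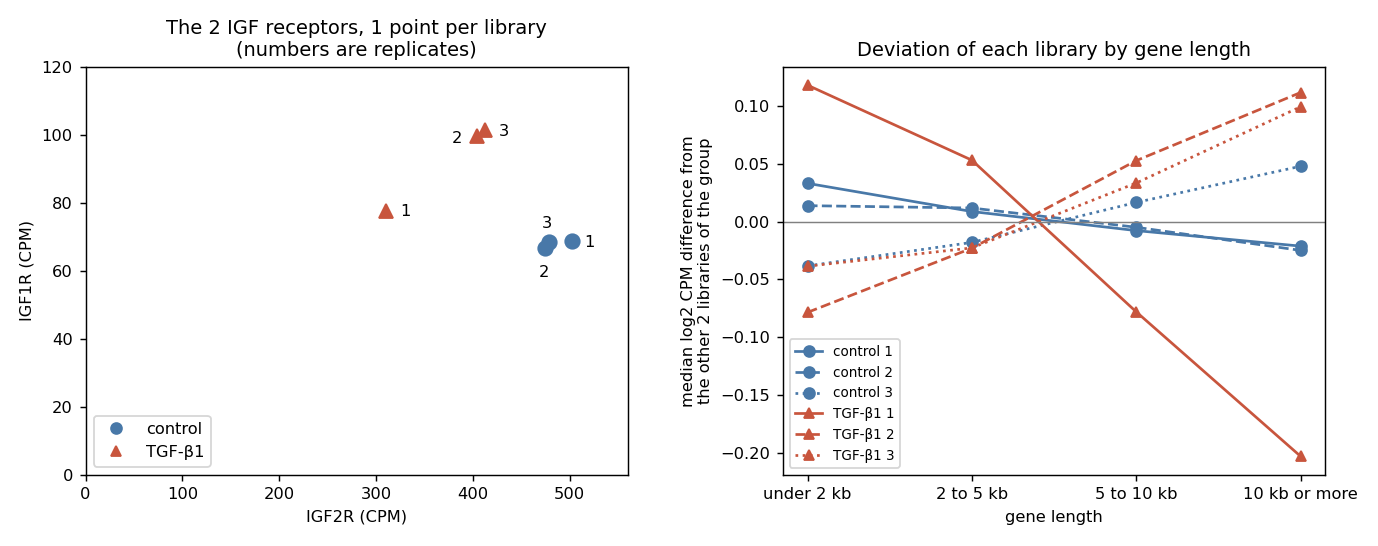
Left, CPM of IGF1R against CPM of IGF2R with 1 point per library and the replicate number beside it, both axes from 0. Right, the median log2 CPM difference of each library from the other 2 of its group in 4 classes of gene length. TGF-β1 replicate 1 is low for both receptors, at 77.5 and 310 CPM, and its line falls from 0.118 under 2 kb to -0.203 at 10 kb or more.

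IGF2 (chromosome 11, 2129117 to 2149566), the ligand that IGF2R takes up, was near 0 in both groups. It had 3, 4 and 3 counts in control and 4, 4 and 2 after TGF-β1. The read ratio was 0.991 with a 95% exact binomial interval from 0.370 to 2.65 and an exact permutation p of 1.0. IGF2 shares its locus with INS-IGF2, MIR483 and the antisense IGF2-AS, which had at most 1, 1 and 7 counts in a library. Of the other ligands and receptors, IGF1 had 4 control reads and 12 TGF-β1 reads, with a read ratio of 2.97 (95% exact interval 0.901 to 12.6, exact permutation p = 0.1). INS had no read and INSRR at most 4 counts in a library. INSR, the insulin receptor, had 29.0 ± 1.4 and 24.4 ± 3.81 CPM and a log2 fold change of -0.25 ± 0.10 (SE), with an edgeR adjusted p of 0.0749. It was called lower with total counts only, with all entries that had a count and without TGF-β1 replicate 2 (edgeR adjusted p from 0.00888 to 0.0271).

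Outside the members, 62 genes of the IGF system were grouped by role. Of these, 50 were tested, 14 were called higher and 9 lower, with a median log2 fold change of 0.017, against 44.3% called and 0.0063 over all genes tested. Proteases and their regulators had 2 higher and 2 lower of 5 tested. PAPPA, a metalloprotease that cuts IGFBP4 and IGFBP5, rose from 24.3 ± 0.0398 to 48.6 ± 7.37 CPM (SD, n = 3), a log2 fold change of 1.0 ± 0.10 (SE) with an edgeR adjusted p of 2.5e-05. STC2, a secreted inhibitor of PAPPA, fell from 231 ± 14.8 to 157 ± 4.93 CPM (log2 fold change -0.56 ± 0.06) with an edgeR adjusted p of 2.48e-05. ADAM12, which cuts IGFBP3 and IGFBP5, rose from 31.5 ± 0.516 to 73.0 ± 3.46 CPM. ADAM9 was lower (log2 fold change -0.39 ± 0.10), and its name has more than 1 entry. IGFALS, the subunit that joins IGFBP3 and IGF in blood, had at most 5 counts in a library.

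In the list of relatives with an IGFBP domain, 2 of 4 tested genes were higher and none was lower. Over all genes tested, 44.3% were called in either direction. The list was partial, and the CCN genes, which also encode such a domain, were not in it. HTRA1, a secreted serine protease, had 151, 164 and 179 counts in control and 1441, 1062 and 923 after TGF-β1. Its mean rose from 7.01 ± 0.537 to 47.8 ± 6.55 CPM (SD, n = 3), a log2 fold change of 2.77 ± 0.11 (SE) with an edgeR adjusted p of 1.26e-08. HTRA3, a related protease, was higher by 0.92 ± 0.20 on the log2 scale. IGFBPL1 and KAZALD1 were not called, and ESM1 had no read.

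Signalling genes next to the receptors had 6 higher, 3 lower and 14 not called of 23 tested, beside 44.3% called over all genes tested. GRB14, an adaptor that binds the insulin receptor and restrains it, rose from 24.2 ± 0.729 to 75.0 ± 3.81 CPM (log2 fold change 1.63 ± 0.06). FOXO1, a transcription factor that AKT keeps out of the nucleus, rose from 1.22 ± 0.203 to 3.59 ± 0.475 CPM (1.56 ± 0.19), while FOXO3 of the same family fell from 94.8 ± 3.07 to 65.5 ± 9.14 CPM (-0.53 ± 0.09). SHC1, an adaptor toward RAS, rose from 134 ± 2.34 to 213 ± 8.20 CPM. The docking protein gene IRS1 was lower by -0.29 ± 0.08 on the log2 scale, and the RAS exchange factor gene SOS1 by -0.22 ± 0.08. IRS1 lost its call without control replicate 1 (edgeR adjusted p = 0.0545). SOS1 lost it with DESeq2 (adjusted p = 0.0504) and in the fits that left out replicate 2 or 3 of control or replicate 3 of TGF-β1 (edgeR adjusted p from 0.0639 to 0.156).

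IGF2R sorts lysosomal enzymes, and 2 of 7 tested genes of mannose 6-phosphate sorting were lower and none was higher, beside 22.1% lower and 22.2% higher over all genes tested. GNPTAB, which makes the mannose 6-phosphate tag, fell from 137 ± 0.800 to 101 ± 6.64 CPM (SD, n = 3), a log2 fold change of -0.45 ± 0.06 (SE) with an edgeR adjusted p of 1.15e-04. GGA2, a sorting adaptor of the Golgi, fell from 113 ± 1.09 to 86.1 ± 5.97 CPM (-0.40 ± 0.06). M6PR, the cation-dependent receptor of the same tag, was not called, with 150 ± 4.30 and 158 ± 8.22 CPM and a log2 fold change of 0.07 ± 0.06. Of the IGF2 transcript regulators, IGF2BP1 was higher (0.35 ± 0.06) and IGF2BP2 was lower (-0.18 ± 0.05), the latter not without control replicate 1 or TGF-β1 replicate 3 (edgeR adjusted p of 0.0611 and 0.0659).

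Among partners of the binding proteins at the cell surface and elsewhere, 3 of 6 tested genes were higher and 1 was lower, beside 22.2% and 22.1% over all genes tested. ITGA5 and ITGB1, which form the fibronectin receptor, rose by 0.78 ± 0.05 and 0.86 ± 0.07 on the log2 scale. LRP1, an endocytic receptor that binds IGFBP3, was higher by 0.25 ± 0.07, a call lost with total counts only and without control replicate 2 (edgeR adjusted p of 0.0987 and 0.0579). TMEM219, a membrane receptor of IGFBP3, was lower (-0.25 ± 0.08), a call lost with DESeq2 and in 4 of the 6 fits that left out a library, with adjusted p from 0.0628 to 0.0866.

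**Figure D4:**
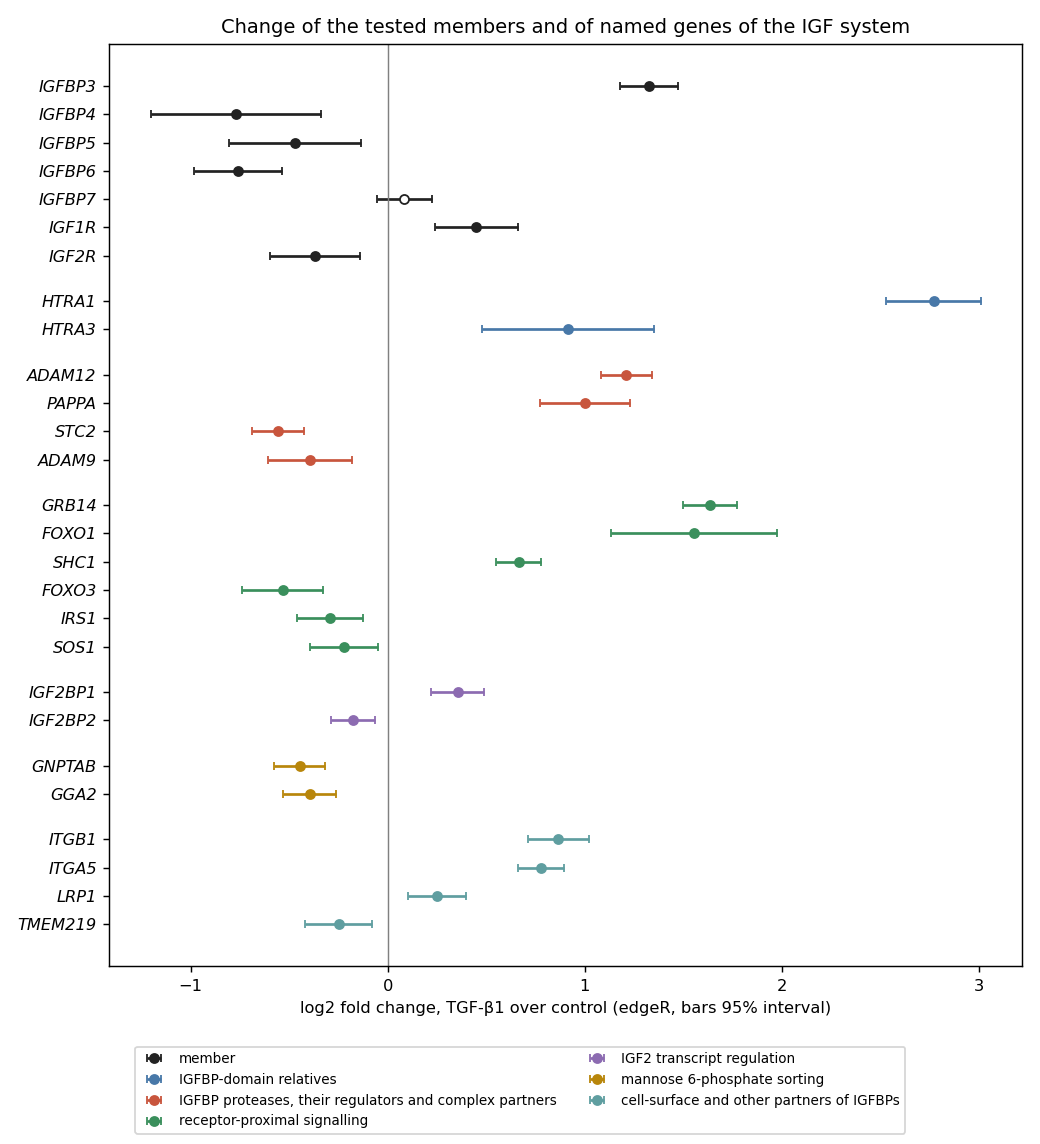
Log2 fold change of TGF-β1 over control with its 95% interval from edgeR, for the 7 tested members and for the called genes of each list of the IGF system with the largest changes, coloured by list. Filled points are called and the open point is not. HTRA1 lies farthest right at 2.77, IGFBP3 is the highest member at 1.33, and IGFBP7 is the open point at 0.08.

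The genes whose pattern over the 6 libraries was nearest to that of IGFBP3 were PBX4, ULK1 and SSBP3, with a root mean square distance of centred log2 CPM of 0.0271, 0.0427 and 0.0428 among 10719 genes compared. Nearest to IGFBP4, which led IGFBP6 among the called falls by less than its SE, were ADCK2, IGSF8 and LOC105376156, at 0.0683, 0.0883 and 0.0920.

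**Figure D5:**
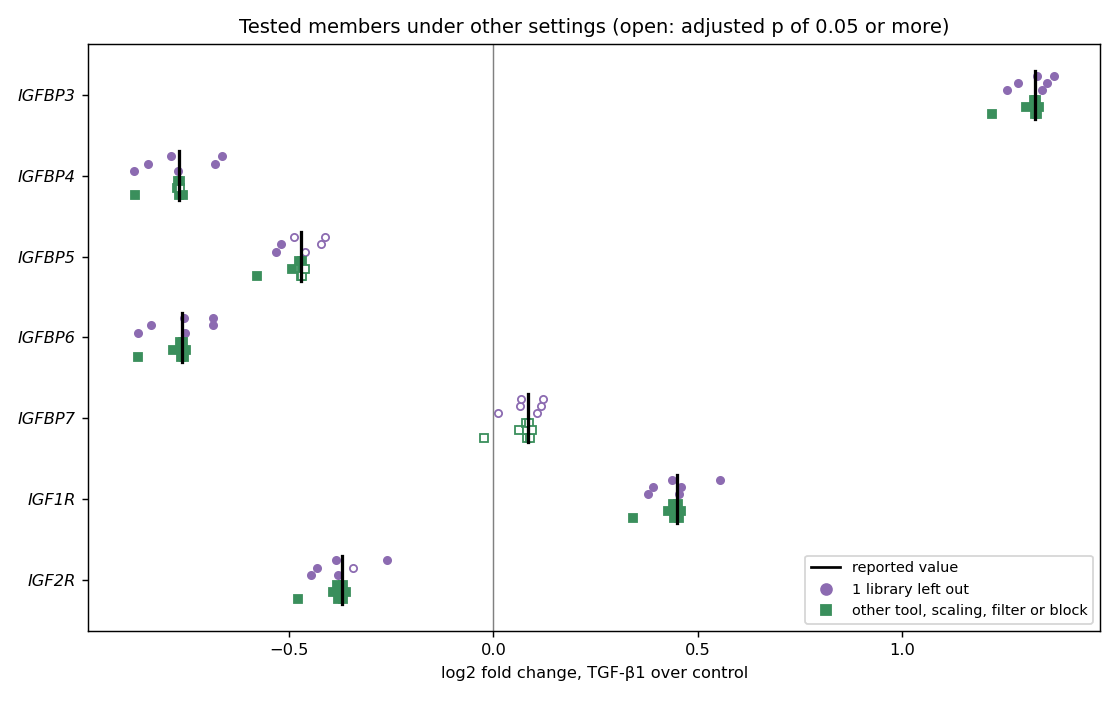
Log2 fold change of the 7 tested members under other settings, with the reported value as a black line, fits that leave out 1 library as circles and other tools, scalings, filters or the replicate block as squares, shifted up and down to separate them. Open symbols have an adjusted p of 0.05 or more. IGFBP3, IGFBP6 and IGF1R are filled throughout, and IGFBP4, IGFBP5 and IGF2R are open in part. IGFBP7 is open throughout and crosses 0 with total counts only. The test against 1.2-fold is not drawn.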

How the data were processed

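RNA-seq was done on poly(A) mRNA of 6 HK-2 libraries. The deposited tables hold raw counts per gene and TPM, both computed by the authors. The submitters' processing notes name CASAVA, featureCounts 2.0.1, DESeq2 1.16.1 and hg38 without their roles. The aligner, the annotation release and the strandedness of counting were not given in the sources used here. Broken records, 7 per table, were rejoined. Unnamed loci (598 of 42095 entries, 0.396% to 0.464% of counts) were left out.

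Named entries that passed filterByExpr (minimum count 10) were fitted with edgeR 4.0.16 (TMM, robust quasi-likelihood F test, 2-sided) in R 4.3.3 and adjusted by Benjamini-Hochberg over the 14860 tested. CPM used the TMM-scaled library size. The SE was the size of the log2 fold change over the square root of F. Ratios (0.5 added to counts) and members under the filter had exact permutation tests. Alternatives included DESeq2 1.42.0, limma 3.58.1 (voom), other scalings and filters, a test against 1.2-fold and leaving out each library. Scripts were tested on simulated data. Sequences came from RefSeq tables of GRCh38.p14. Listed were all members, all other ligands and receptors, and at most 3 called rises and 3 called falls per list. Neighbours were the nearest entries with a mean of at least 10 counts within 500 kb on each side and entries within 20 kb. For the patterns nearest to a member, the 3 genes with the smallest distance and a mean of at least 5 CPM were named. Members and lists were chosen with earlier results of these data known. Some genes of the lists are not reported here.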

Additional observations from a re-analysis of the deposited data

How the results depend on the processing

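Of the 7 tested members, IGFBP3, IGFBP6 and IGF1R kept their direction and call under all 15 other settings. IGFBP7 reversed in sign with total counts only (-0.023, not called), a scaling that put the median over all genes tested at -0.101. The number of members called lower was 4, but 2 with DESeq2, 2 in the test against 1.2-fold, and 2 to 5 when 1 library was left out, where TGF-β1 replicate 3 or control replicate 2 gave 5 and control replicate 1 gave 2. Each count of 5 includes IGFBP1, which then passed the filter, and without TGF-β1 replicate 1 IGFBP1 took the place of IGFBP5 in a count of 4, as it did with all entries that had a count. The number called higher was 2 throughout. In the 1.2-fold test IGF2R and IGFBP5 had adjusted p of 0.189 and 0.138. With total counts only, 15 genes of the IGF system were lower (9 as reported, 6 to 10 with 1 library left out) and 2134 of all genes were higher against 4590 lower (3294 and 3288 as reported). Shares of the binding protein transcripts moved when CPM replaced TPM, to 28.9% and 51.2% for IGFBP3, 11.9% and 4.96% for IGFBP6, and 57.2% and 42.9% for IGFBP7, in control and after TGF-β1. The read ratio of IGFBP1 was 0.230 to 0.353 with 1 library left out, and this and the fit of all entries for IGFBP1 were added after the data were seen. With a mean of at least 50 counts IGFBP4 was not tested. The labels give both groups replicate numbers, but the deviations of same-numbered libraries correlated at 0.111, -0.0117 and 0.0762, so the numbers were not taken as pairs. With the replicate block 2 members were higher and 4 lower, as without it. With 10 to 34 reads per group, changes of IGFBP1 and IGF2 are limited by depth.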

Other observations

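Several values of the neighbourhood of IGF2 and IGF1R had no place in the comparisons. CTSD, which encodes the lysosomal protease cathepsin D, a cargo of mannose 6-phosphate receptors, is the nearest gene with a mean of at least 10 counts at lower coordinates of IGF2, 365190 bases away, and was lower (390 ± 26.5 to 312 ± 32.4 CPM, SD, n = 3, log2 fold change -0.33 ± 0.08, edgeR adjusted p = 0.00672). CD81, the nearest such gene on the other side, was not called, with 127 and 124 CPM. SYNM, a gene of the intermediate filament protein synemin 140539 bases from IGF1R, was lower (-0.40 ± 0.10, edgeR adjusted p = 0.00905) while IGF1R was higher.

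The adaptor GRB10, a relative of GRB14, was called higher too, from 29.3 ± 0.98 to 41.1 ± 2.77 CPM (SD, n = 3, edgeR adjusted p = 0.00018), as were the regulatory subunits of phosphoinositide 3-kinase PIK3R1 (log2 fold change 0.42 ± 0.07) and PIK3R2 (0.20 ± 0.06). The regulatory subunit gene PIK3R3 was not called (-0.05 ± 0.28). The catalytic subunit genes PIK3CA and PIK3CB were not called, at 0.11 ± 0.06 and -0.06 ± 0.06. PIK3CD, a catalytic subunit gene outside the lists, was called higher (0.59 ± 0.06, edgeR adjusted p = 1.02e-05). These genes were chosen after their values were seen. ZBED6, a repressor of IGF2, had 597 counts in TGF-β1 replicate 1 against 1392 and 1258 in the other TGF-β1 libraries and 1330 to 1530 in control.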
